A study of Mus musculus with 6 samples.

Results

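Splicing factors and heterogeneous nuclear ribonucleoproteins (hnRNPs) are the nuclear proteins that bind pre-mRNA and remove its introns. Their transcripts were followed here in sorted cells labelled L-GMP, for leukaemic granulocyte-macrophage progenitors. The granulocyte-macrophage progenitor is the bone marrow cell that gives rise to granulocytes and monocytes. The identity is that of the label, and marker genes are given below. Members were all genes of the deposited table whose symbol begins with Srsf, Hnrnp, Snrp, Sf3a, Sf3b or Prpf, without symbols containing "-ps", and 66 of 47643 genes met this. RNA-seq libraries from C57BL/6 mice were compared: 3 from L-GMP whose label gives a knockout (KO) of both Prkaa1 and Prkaa2, and 3 from L-GMP labelled wild type (WT). Prkaa1 and Prkaa2 encode the kinase subunits of AMPK, the AMP-activated sensor of low cellular energy. The labels give no oncogene, no Cre line, no age, no number of mice and no batch, and nothing says that libraries of a genotype came from separate mice, so p-values measure only how these libraries vary, and that variation may be technical. The comparison asks which of these transcripts differ in level between KO and WT.

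Introns are removed by the spliceosome, which is built from small nuclear ribonucleoprotein particles (snRNPs) called U1, U2, U4, U5 and U6. U1 recognises the 5′ splice site and U2 the branch site, U2 with the help of the SF3a and SF3b complexes. The U4/U6.U5 tri-snRNP then joins, and several of the PRPF proteins belong to it. The U1, U2, U4 and U5 RNAs each carry a ring of Sm proteins. SR proteins, named for arginine and serine repeats, bind exons and generally favour their inclusion, while hnRNPs coat the pre-mRNA and often act against inclusion. In myeloid disease in humans, SF3B1 and SRSF2 are recurrently mutated splicing factors.

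Sequences upstream of RefSeq gene starts are shown because most members that passed the test moved in the same direction. The 250 bases before each RefSeq gene start (GRCm38.p6) were found for 57 of the 66 members and searched on both strands for CCGGAAG, the core letters bound by ETS-family factors, for CCAAT, bound by NF-Y, and for CACGTG, the E-box of MYC and related factors. Genes with several starts have several windows, and a match in any of them was counted. Members had 77 windows for 57 genes, and the whole set had 32851 windows for 27025 genes. No letters can be shared between matches of different motifs. CCGGAAG was spelled before 18 of the 57 members (31.6%), against 7.83% of the 27025 genes that have such a window, many of which were not detected in these cells. CCAAT was spelled before 28 members (49.1%), against 37.5% of all genes, and CACGTG before 7 members (12.3%), against 6.86%. Members' windows were also richer in G and C, with a median of 59.6% against 52.4% over all windows. The matches are descriptions of letters, not of binding. Stretches of 27 bases around CCGGAAG, in capitals and read 5′ to 3′ on the strand that spells it, are given for 4 members that were lower in KO (Sf3a3, Prpf3, Sf3b3 and Hnrnpd), for Sf3b6, which was not called, and for Srsf5, which was higher as deposited. RefSeq starts can differ from the GENCODE gene positions given below. By GENCODE the Prpf3 stretch lies within the gene, and the Sf3a3 stretch spans the gene start.
Sf3a3 (chr4:124714761-124714787, minus strand): tccgcgtgtcCCGGAAGtgtcttgggg
Prpf3 (chr3:95855794-95855820, minus strand): cgtagggcaaCCGGAAGgtttccggtt
Sf3b3 (chr8:110847016-110847042, plus strand): cctcgcaagcCCGGAAGcgcccaccgg
Hnrnpd (chr5:99979100-99979126, plus strand): ttaaagaggaCCGGAAGtggcgtgcgc
Sf3b6 (chr12:4817513-4817539, minus strand): ggattgcggaCCGGAAGgggcggggcg
Srsf5 (chr12:80945399-80945425, minus strand): ttcctgggagCCGGAAGttctagtagg

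By direction as deposited, CCGGAAG was found before 14 of 32 members lower in KO with a window, 1 of 9 higher in KO and 2 of 10 not called. CCAAT was found before 14 of 32, 4 of 9 and 6 of 10 of these members. CACGTG was found before 4 of 32, 0 of 9 and 2 of 10. Shares among all genes lower or higher in KO were not counted, so these splits cannot be set apart from those of other genes. The directions also depend on the scaling: with libraries rescaled to equal FPKM sums, 50 members were lower and 4 higher. Srsf5, the only higher member with CCGGAAG, was then not called, and Sf3b6 was lower. The windows of the largest rise, Hnrnpab, and of a large fall, Snrpa1, are given whole, 5′ to 3′ on the gene's strand, with CCAAT or its reverse complement in capitals. Hnrnpab held 3 matches to CCAAT, and Snrpa1 held none of the searched motifs. By GENCODE the Snrpa1 window lies within the gene, past its annotated start.
Hnrnpab (chr11:51606882-51607131, minus strand): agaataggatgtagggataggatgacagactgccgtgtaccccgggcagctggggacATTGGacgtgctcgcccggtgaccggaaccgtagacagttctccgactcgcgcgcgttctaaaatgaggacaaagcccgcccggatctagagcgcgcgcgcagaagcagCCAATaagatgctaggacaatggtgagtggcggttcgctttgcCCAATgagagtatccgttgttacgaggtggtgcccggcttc
Snrpa1 (chr7:66060086-66060335, plus strand): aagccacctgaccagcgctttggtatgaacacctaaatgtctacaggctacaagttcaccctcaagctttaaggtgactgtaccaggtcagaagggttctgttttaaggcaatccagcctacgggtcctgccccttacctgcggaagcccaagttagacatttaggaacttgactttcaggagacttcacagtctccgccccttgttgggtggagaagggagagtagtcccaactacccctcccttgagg

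The 6 libraries held 11389558 to 16414719 recovered reads, and the values are FPKM, reads scaled by gene length and library size by the authors, given per library or as mean ± SD (n = 3 libraries per genotype). Log2 fold changes are KO minus WT on the log2(FPKM + 1) scale, and adjusted p-values are those of limma with Benjamini-Hochberg adjustment over 9108 genes, those averaging 1 FPKM or more. Prkaa1, the check of the labels, had 1.11, 0.735 and 0.548 FPKM in KO libraries, against 2.01, 2.20 and 1.80 FPKM in WT libraries, a fall of 0.75 on the log2 scale (adjusted p = 0.00112). Prkaa2 was near 0 everywhere, with 0, 0.0220 and 0.0194 FPKM in KO libraries, against 0, 0 and 0.0178 FPKM in WT libraries, so it does not check the labels, and the deleted exons are not given. KO and WT libraries stood far apart across the whole table: 78.4% of tested genes passed the threshold of 0.05. Lower in KO were 40.4% of tested genes, and higher were 38.0%. Genes of other cell types and maturation stages moved with genotype. All 9 tested neutrophil genes of 14 listed rose, with a sum of 81000 to 82900 FPKM in KO libraries, against 596 to 608 FPKM in WT libraries. All 8 tested basophil, mast cell and eosinophil genes rose (sum 576 to 606 FPKM in KO, 32.9 to 39.0 FPKM in WT), as did all 7 tested erythroid genes (sum 92.3 to 92.6 FPKM in KO, 19.7 to 22.9 FPKM in WT). Ly6g, Prss34, Fcer1a and Gata1 were at 0 in every WT library, Mmp9 was at 0 in KO with 9 reads in WT, and Fpr1 was at 0 in all 6 libraries. Of 5 tested monocyte and macrophage genes 4 fell and 1 rose, and of 16 proliferation genes 8 fell and 6 rose. Of 8 B cell genes Cd79b alone was tested and fell, with 2.48 ± 0.557 FPKM in KO and 54.6 ± 2.73 FPKM in WT (-4.01), while Vpreb1 and Igll1 were at 0 in KO and averaged 0.592 ± 0.106 and 0.503 ± 0.162 FPKM in WT, and Pax5 was at 0 everywhere. Of 8 endothelial and stromal genes Pecam1 alone was tested and fell, with 1 read in KO and 660 reads in WT (-1.75), and of 2 tested T and natural killer cell genes Nkg7 rose and Lck fell. Of 6 tested markers of granulocyte-macrophage progenitors 5 fell and Mpo rose, with Cd34 at 3.51 ± 0.157 FPKM in KO and 27.9 ± 0.840 FPKM in WT and Cd33 at 0 in KO and 5.81 ± 0.483 FPKM in WT. Kit and Csf1r, the untested markers of this list, were higher in every KO library than in any WT library. Kit averaged 1.43 ± 0.0243 FPKM in KO and 0.2505 ± 0.0654 FPKM in WT, and Csf1r had 32 reads in KO and 1 read in WT. Malat1, a nuclear-retained RNA, had 171, 180.2 and 181 FPKM in KO libraries, against 23.8, 23.5 and 20.4 FPKM in WT libraries. The part of cell makeup, maturation or RNA quality in the results below was not tested, and in bulk libraries fewer cells of a type and less RNA per cell cannot be told apart.

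Splicing factor and hnRNP transcripts were more often lower than higher in KO. Of the 66 members, 64 had reads and 60 passed the filter on low values; no tested member averaged under 1 FPKM in either genotype. Of the 60, 35 fell (58.3%, against 40.4% of all genes), 11 rose (18.3%, against 38.0% of all genes) and 14 were not called. The share called in either direction was 76.7%, near the 78.4% of all genes. KO and WT libraries did not overlap for 49 of the 60, against 80.6% of all genes. The median log2 fold change of members was -0.24, against -0.02 for all tested genes. Most changes were small: 42 of the 60 changed by less than 1.5-fold, Sf3a3 was the only tested member to fall at least 2-fold and Hnrnpab the only tested member to rise at least 2-fold. Summed over members, the level was 3217 ± 29.4 FPKM in KO and 3759 ± 27.5 FPKM in WT, a ratio of 0.856. As a share of each library's summed FPKM, members took 0.494% in KO and 0.80% in WT. The libraries themselves summed to 649611 to 653819 FPKM in KO and 463683 to 475654 FPKM in WT, and the direction of some members depends on the scaling. With libraries rescaled to equal FPKM sums, the median of all genes was -0.41 and that of members -0.67. On that scale 5383 of all genes were lower and 2074 higher, while 50 members were lower in KO and 4 were higher (Hnrnpab, Srsf9, Srsf2 and Hnrnpul2). Relative to the median of all genes, members' median was -0.22 as deposited and -0.26 with equal sums. When the 10 most abundant genes of each genotype were left out of the sums, 35 members were lower and 10 higher. Only Sf3b1 then lost its call, and the median was -0.29 for members and -0.06 for all genes.

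**Figure D1:**
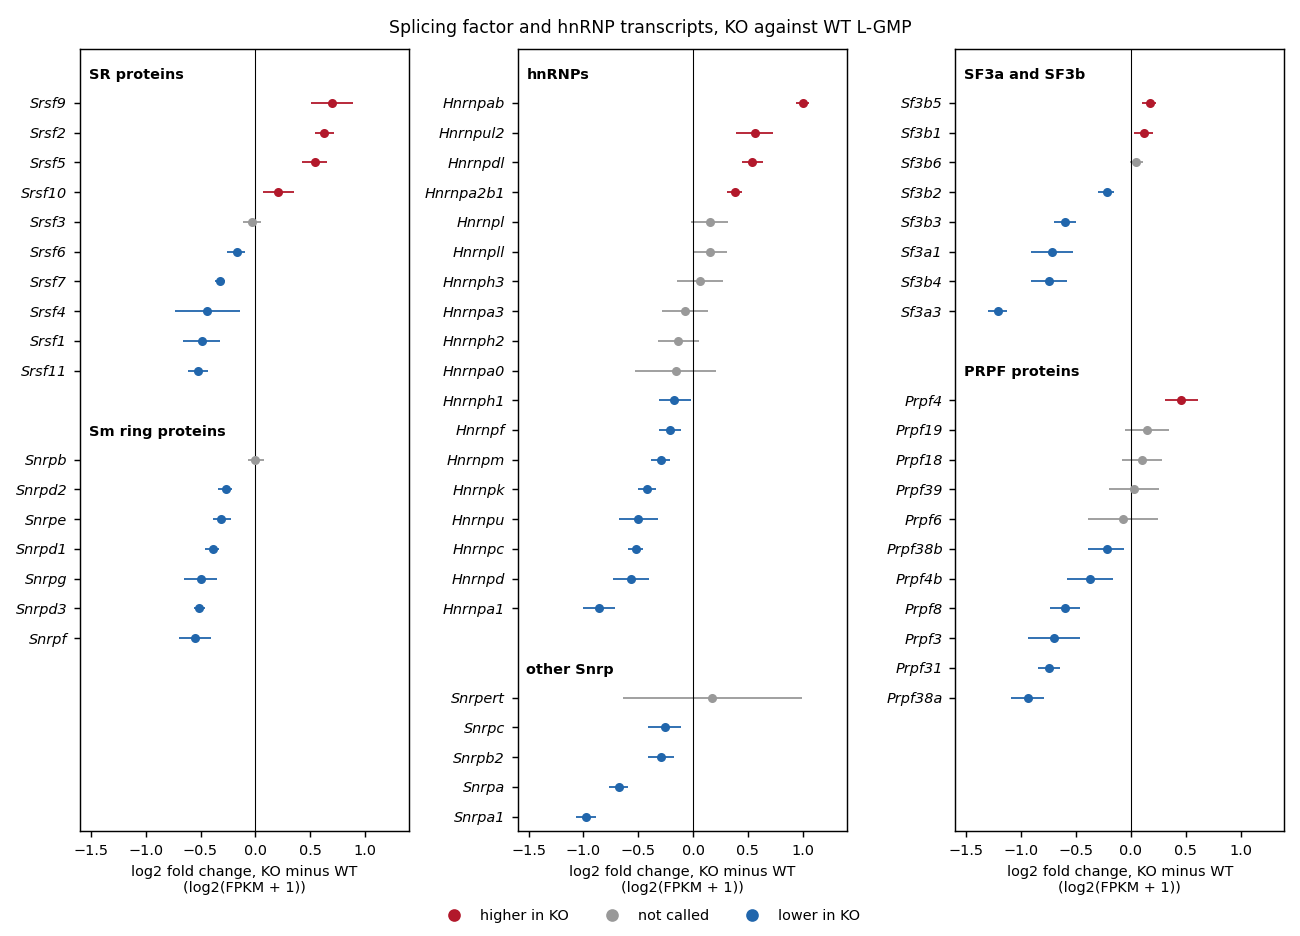
Log2 fold change (KO minus WT, log2(FPKM + 1)) of tested members by class, with 95% confidence intervals from limma as bars; colour gives the call at an adjusted p of 0.05. On the deposited scale most called members lie below 0, down to -1.21 for Sf3a3, and the highest is Hnrnpab at 1.0; rescaling to equal sums turns the sign of 13, among them Hnrnpa2b1, Srsf10, Sf3b1 and Sf3b5.

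The SF3a and SF3b complexes, which make U2 competent to bind the branch site, were lower in most tested subunits: 5 of 8 fell, 2 rose and 1 was not called as deposited (median -0.41), and all 8 were lower with libraries rescaled to equal sums. Sf3a3, an SF3a subunit (chr4:124714776-124732460, plus strand), had 24.0, 22.7 and 24.1 FPKM in KO libraries, against 55.8, 55.6 and 56.4 FPKM in WT libraries. It was 2.37-fold lower in KO, the largest fall of any tested member, and its log2 fold change was -1.21 (SE 0.036, adjusted p = 9.57e-08). Sf3b4, an RNA-contacting SF3b subunit (chr3:96172332-96177564, plus strand), had 8.97, 9.98 and 8.22 FPKM in KO libraries, against 15.8, 16 and 15.7 FPKM in WT libraries. Sf3a1, the SF3a subunit that contacts U1 RNA (chr11:4160350-4182541, plus strand), had 3.85, 4.41 and 3.52 FPKM in KO libraries, against 7.19, 7.15 and 6.96 FPKM in WT libraries. All 3 transcripts were lower in every KO library than in any WT library. Sf3b4 was 1.75-fold and Sf3a1 1.81-fold lower in KO, with log2 fold changes of -0.75 (SE 0.070) and -0.72 (SE 0.079) and adjusted p = 3.87e-05 and 9.93e-05. Sf3b3, which with Sf3b1 holds the complex together, averaged 14.3 ± 0.309 FPKM in KO and 22.1 ± 0.572 FPKM in WT (log2 fold change -0.60), and Sf3b2 averaged 44.3 ± 0.914 FPKM in KO and 51.8 ± 0.701 FPKM in WT (-0.22).

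Sf3b1, Sf3b5 and Sf3b6 differed little between genotypes as deposited, and their direction depended on the scaling. Sf3b1, the subunit that encloses the branch site (chr1:54985169-55027481, minus strand), had 27.2, 27.6 and 27.4 FPKM in KO libraries, against 25.3, 24.5 and 25.9 FPKM in WT libraries. Sf3b5, a small structural subunit (chr10:13005343-13009183, plus strand), had 121, 123 and 121 FPKM in KO libraries, against 108, 106 and 111 FPKM in WT libraries. Both were called higher on the deposited scale, by 0.12 (adjusted p = 0.0214) and 0.17 (adjusted p = 0.000816) on the log2 scale, and both turned lower under equal library sums (-0.34 and -0.30); Sf3b1 also lost its call without KO replicate 2, WT replicate 1 or WT replicate 2. Sf3b6, which contacts the branch adenosine, was the most abundant of the group with 176, 168 and 169.6 FPKM in KO libraries, against 165, 166 and 165 FPKM in WT libraries. Its KO libraries lay above its WT libraries without passing the test (log2 fold change 0.05, 95% interval -0.01 to 0.11). Sf3b6 was called lower with equal sums (-0.42, adjusted p = 2.9e-06) and higher after loess normalization (0.10, adjusted p = 0.00608). Sf3a2, the remaining SF3a subunit, was under the filter with 0.618, 0.759 and 0.582 FPKM in KO libraries, against 0.444, 0.333 and 0.667 FPKM in WT libraries, and its genotypes overlapped. The ratio of Sf3a3, of SF3a, to Sf3b1, of SF3b, was 0.861 ± 0.0335 in KO and 2.22 ± 0.0467 in WT, so relative to Sf3b1 the Sf3a3 transcript was lower in every KO library.

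The 4 members with Snrp symbols that encode particle-specific proteins of U1 and U2 all fell as deposited (median -0.48). All 4 were lower with equal sums (median -0.94). The SF3a and SF3b subunits, which act with U2, are counted apart above and did not all fall as deposited. Snrpa1, the U2-A′ protein of the U2 particle (chr7:66059003-66074587, plus strand), had 64.6, 70.5 and 68.5 FPKM in KO libraries, against 136, 137 and 132 FPKM in WT libraries. It was 1.99-fold lower in KO (log2 fold change -0.98, SE 0.038, adjusted p = 3.25e-07). Its partner on U2 RNA, Snrpb2, the U2-B″ protein (chr2:143063039-143072853, plus strand), had 37.1, 38.8 and 38.7 FPKM in KO libraries, against 49.1, 48.1 and 43.5 FPKM in WT libraries. Snrpb2 was 1.23-fold lower (-0.29, adjusted p = 0.00132), a smaller fall than that of its partner, and the ratio of Snrpa1 to Snrpb2 was 1.78 ± 0.0386 in KO and 2.88 ± 0.132 in WT. Snrpa, the U1-A protein that binds a stem-loop of U1 RNA (chr7:27187005-27196271, minus strand), had 37.1, 38.9 and 40.1 FPKM in KO libraries, against 61.2, 62.0 and 64.5 FPKM in WT libraries and was 1.62-fold lower (-0.68, adjusted p = 2.98e-06). Snrpc, the U1 protein that touches the 5′ splice site, averaged 5.25 ± 0.178 FPKM in KO and 6.49 ± 0.356 FPKM in WT (-0.26). Snrpert, counted with these Snrp symbols in the plots but annotated by GENCODE as a processed pseudogene, stood apart because of KO replicate 3, with 35.3, 30.8 and 84.5 FPKM in KO libraries, against 36.1, 42.6 and 41.7 FPKM in WT libraries. It was not called over all libraries (log2 fold change 0.17, adjusted p = 0.664), while without KO replicate 3 its log2 fold change was -0.27 and it was called lower (adjusted p = 0.0328). Reads of a processed copy and of its source gene cannot be told apart where their sequences are the same, so its level is uncertain.

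**Figure D2:**
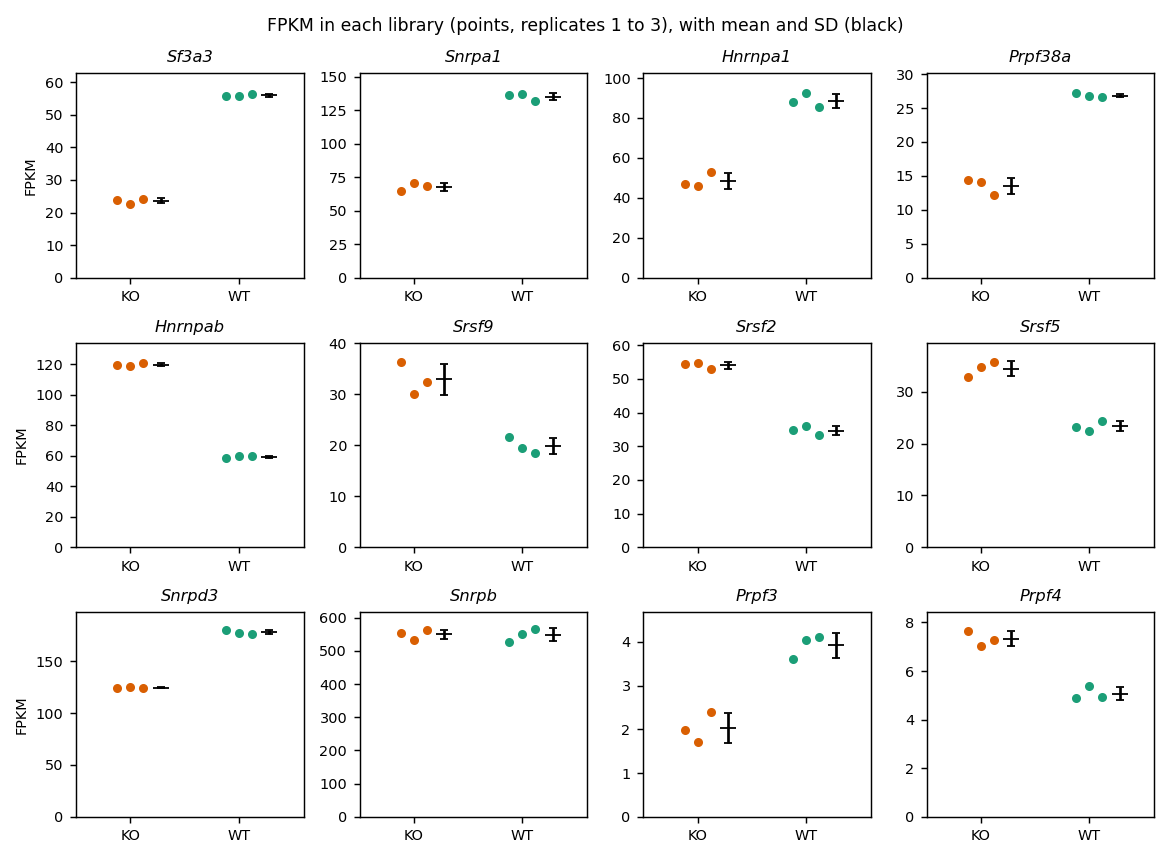
FPKM of 12 members in each library (points), KO left and WT right, with the mean and SD of 3 libraries in black; each vertical axis is linear and starts at 0. Sf3a3, Snrpa1, Hnrnpa1, Prpf38a, Snrpd3 and Prpf3 lie lower in every KO library, Hnrnpab, Srsf9, Srsf2, Srsf5 and Prpf4 higher, and Snrpb overlaps.

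The Sm ring was lower in 6 of its 7 tested proteins, with none higher as deposited (median -0.39). Snrpb, which encodes the B and B′ proteins of the ring (chr2:130171414-130179403, minus strand), was the most abundant member of all with 554, 534 and 561 FPKM in KO libraries, against 527, 550.5 and 567 FPKM in WT libraries. It was the exception: the genotypes overlapped, and its log2 fold change was 0.00 (95% interval -0.07 to 0.08) as deposited, against -0.47 with equal sums and -0.13 after quantile normalization, and it was called lower under both. Snrpd3, which pairs with the B protein in the ring (chr10:75517551-75537381, plus strand), had 124, 125 and 125 FPKM in KO libraries, against 179.8, 178 and 176 FPKM in WT libraries. Its KO libraries spread by only 0.432 FPKM (SD) and lay below every WT library, 1.43-fold lower (-0.51, SE 0.021, adjusted p = 4.29e-07). The ratio of Snrpd3 to its partner Snrpb was 0.226 ± 0.0062 in KO and 0.325 ± 0.0152 in WT. Snrpd1, which pairs with Snrpd2, had 324, 333 and 319 FPKM in KO libraries, against 414, 437 and 431 FPKM in WT libraries. Snrpd2 averaged 99.1 ± 2.32 FPKM in KO and 119.8 ± 1.82 FPKM in WT. Both fell, Snrpd1 by more (-0.39 and -0.27 on the log2 scale), and the ratio of Snrpd1 to Snrpd2 was 3.28 ± 0.0282 in KO and 3.57 ± 0.146 in WT.

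The third part of the ring is formed by Snrpe, Snrpf and Snrpg. Snrpg (chr6:86371304-86379328, plus strand) had 116, 100 and 109 FPKM in KO libraries, against 145, 164 and 153 FPKM in WT libraries. Snrpf (chr10:93583029-93589706, minus strand) had 29.3, 29.0 and 25.2 FPKM in KO libraries, against 42.9, 41.2 and 39.5 FPKM in WT libraries, but 85.4% of its exonic bases are shared with annotated neighbours, so its level is uncertain. Snrpe averaged 228 ± 8.66 FPKM in KO and 282 ± 9.94 FPKM in WT. All 3 were lower in KO, with log2 fold changes of -0.50 (SE 0.064), -0.55 (SE 0.064) and -0.31 (SE 0.037) and adjusted p-values between 0.000137 and 0.000232. The ratio of Snrpg to Snrpe overlapped between genotypes, at 0.476 ± 0.0495 in KO and 0.546 ± 0.0448 in WT. Snrpn, a relative of Snrpb known from brain, had no read in any library, which allows up to 0.0374 FPKM in KO and 0.0309 FPKM in WT (3 reads over a group, counting error only). Of its exonic bases 34.1% are shared with neighbours, among them Snurf, which was also listed at 0, so these limits hold only if shared reads were counted. Added up, the ring proteins' transcripts came to 1463 ± 8.48 FPKM in KO and 1751 ± 24.3 FPKM in WT.

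Several of the PRPF proteins, though not all, act in the tri-snRNP or in later steps. Of 12 tested PRPF members 7 fell, 1 rose and 4 were not called as deposited (median -0.28). With equal sums 10 were lower and 0 higher. Prpf38a, which joins with the tri-snRNP before activation (chr4:108563172-108579336, minus strand), had 14.3, 14.1 and 12.2 FPKM in KO libraries, against 27.1, 26.7 and 26.7 FPKM in WT libraries. Prpf31, a U4/U6 protein that bridges to U5 (chr7:3629985-3642486, plus strand), had 33.6, 36.5 and 33.5 FPKM in KO libraries, against 59.3, 57.3 and 59.6 FPKM in WT libraries. Prpf3, a further U4/U6 protein (chr3:95830124-95855885, minus strand), had 1.99, 1.72 and 2.39 FPKM in KO libraries, against 3.6, 4.05 and 4.12 FPKM in WT libraries. In each case the genotypes did not overlap, and the transcripts were 1.98-fold, 1.70-fold and 1.93-fold lower in KO. Their log2 fold changes were -0.94 (SE 0.064), -0.75 (SE 0.043) and -0.70 (SE 0.101), with adjusted p = 6.5e-06, 2.67e-06 and 0.000432. Prpf8, the core of U5 that holds the catalytic RNA, averaged 6.92 ± 0.376 FPKM in KO and 11.0 ± 0.248 FPKM in WT (log2 fold change -0.60). Prpf4b, a kinase of the tri-snRNP, averaged 3.69 ± 0.161 FPKM in KO and 5.08 ± 0.633 FPKM in WT (-0.37). Prpf38b fell least, with 2.16 ± 0.119 FPKM in KO and 2.69 ± 0.0529 FPKM in WT (-0.22, adjusted p = 0.0215), and lost its call without KO replicate 1, WT replicate 1 or WT replicate 3.

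Prpf4, which binds Prpf3 directly in the U4/U6 particle (chr4:62408797-62426990, plus strand), went the other way with 7.65, 7.04 and 7.28 FPKM in KO libraries, against 4.88, 5.38 and 4.93 FPKM in WT libraries. It was 1.45-fold higher in KO as deposited (0.46, adjusted p = 0.000371) and not called with equal sums (0.05). The ratio of Prpf3 to Prpf4, which no scaling of libraries changes, was 0.278 ± 0.0446 in KO and 0.776 ± 0.0534 in WT. Prpf6, the bridge between U5 and U4/U6, had 7.39, 10.1 and 7.85 FPKM in KO libraries, against 7.97, 8.25 and 10.5 FPKM in WT libraries, overlapping values with no call (-0.07, 95% interval -0.39 to 0.25). Prpf19, the ubiquitin ligase of the complex named for it, averaged 3.11 ± 0.295 FPKM in KO and 2.71 ± 0.194 FPKM in WT, and the second-step factor Prpf18 averaged 2.05 ± 0.132 FPKM in KO and 1.85 ± 0.115 FPKM in WT. Neither was called, nor was Prpf39 (1.79 ± 0.207 FPKM in KO and 1.74 ± 0.234 FPKM in WT), and all 3 genotype pairs overlapped. With equal sums Prpf6, Prpf18 and Prpf39 were called lower (-0.49, -0.21 and -0.27). Prpf40b had no read in the KO libraries, against 0.477, 0.625 and 0.530 FPKM in the WT libraries (123 reads in all). With a floor of 3 reads over the KO group it was at least 33.3-fold lower in KO, and it was under the filter and not tested.

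SR proteins split between the directions: 5 of 10 tested fell, 4 rose and Srsf3 was not called as deposited (median -0.10), against 7 lower and 2 higher with equal sums. The risers were Srsf9, Srsf2, Srsf5 and Srsf10. Srsf9 (chr5:115327177-115333080, plus strand), a close relative of Srsf1, had 36.2, 30.1 and 32.4 FPKM in KO libraries, against 21.6, 19.4 and 18.6 FPKM in WT libraries. Srsf2, the exon-inclusion factor mutated in human myelodysplasia (chr11:116849901-116853094, minus strand), had 54.5, 54.8 and 52.9 FPKM in KO libraries, against 34.8, 35.9 and 33.3 FPKM in WT libraries. Srsf5 (chr12:80945504-80950507, plus strand), an exon-binding SR protein, had 33.0, 34.8 and 35.7 FPKM in KO libraries, against 23.2, 22.5 and 24.4 FPKM in WT libraries. The KO libraries of all 3 lay above every WT library, and the transcripts were 1.66-fold, 1.56-fold and 1.48-fold higher in KO. Log2 fold changes were 0.70 (SE 0.081), 0.63 (SE 0.038) and 0.54 (SE 0.047), with adjusted p = 0.000129, 3.51e-06 and 2.6e-05. With equal sums Srsf9 and Srsf2 remained higher (0.25 and 0.17), Srsf5 was not called (0.09), and Srsf10, 0.21 as deposited, was lower (-0.23). Of Srsf2's exonic bases, 25.3% are shared with Mettl23 and Mfsd11, so its level is uncertain.

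The SR transcripts that fell were Srsf11, Srsf1, Srsf4, Srsf7 and Srsf6. Srsf11 (chr3:158010473-158036639, minus strand) had 18.3, 18.8 and 19.4 FPKM in KO libraries, against 27.8, 27.4 and 27.1 FPKM in WT libraries. Srsf1, the founding SR protein of splice-site choice (chr11:88047373-88053755, plus strand), had 5.91, 6.31 and 6.06 FPKM in KO libraries, against 9.55, 9.32 and 8.15 FPKM in WT libraries. Srsf4 (chr4:131873617-131901706, plus strand) had 1.34, 1.28 and 2.02 FPKM in KO libraries, against 2.58, 2.5 and 2.19 FPKM in WT libraries, with 43% of its exonic bases shared with a neighbour. These 3 were 1.46-fold, 1.48-fold and 1.57-fold lower in KO, with adjusted p = 1.13e-05, 0.000454 and 0.014, and none of their genotype ranges overlapped. Srsf7, which like Srsf3 also acts in mRNA export, was the most abundant SR transcript with 248, 248 and 252 FPKM in KO libraries, against 315, 312 and 309 FPKM in WT libraries. Srsf6 came next with 62.8, 66.4 and 67.2 FPKM in KO libraries, against 75.5, 73.8 and 72.4 FPKM in WT libraries. Srsf7 fell by 0.32 (SE 0.019, adjusted p = 2.82e-06) and Srsf6 by 0.17 (adjusted p = 0.00289), the smallest SR fall, which loess normalization left uncalled. Srsf3 averaged 40.5 ± 1.06 FPKM in KO and 41.4 ± 0.979 FPKM in WT and its genotypes overlapped (-0.03, 95% interval -0.11 to 0.05), while with equal sums it was called lower (-0.49, adjusted p = 1.43e-05). Srsf12 had no read in any library, which allows up to 0.0257 FPKM in KO and 0.0212 FPKM in WT.

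**Figure D3:**
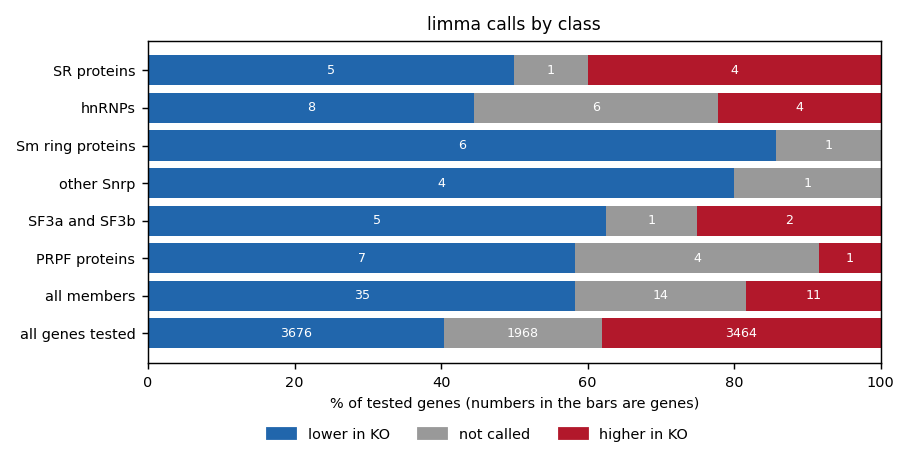
Percentage of tested genes lower in KO, not called and higher in KO at a limma adjusted p of 0.05, for each class, for all 60 tested members and for all 9108 tested genes; numbers in the bars are genes. No Sm ring or other Snrp transcript is higher, while SR proteins have 4 of 10 higher and 5 of 10 lower as deposited, 2 and 7 with equal sums.

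Among hnRNPs, 8 of 18 tested fell, 4 rose and 6 were not called as deposited (median -0.15), against 14 lower and 2 higher with equal sums, and the class held the largest rise of all tested members. Hnrnpab, an RNA-binding relative of Hnrnpd (chr11:51600100-51606847, minus strand), had 119.5, 119 and 121 FPKM in KO libraries, against 58.4, 59.6 and 59.6 FPKM in WT libraries. It was 2.02-fold higher in KO (1.0, SE 0.025, adjusted p = 4.22e-08) and 0.54 higher on the log2 scale with equal sums; 29.1% of its exonic bases are shared with Phykpl, so its level is uncertain. Hnrnpul2, a relative of the nuclear scaffold protein Hnrnpu (chr19:8820010-8834143, plus strand), had 3.94, 3.74 and 3.58 FPKM in KO libraries, against 2.17, 2.37 and 2.14 FPKM in WT libraries. Hnrnpdl, a second relative of Hnrnpd (chr5:100033577-100039664, minus strand), had 18.3, 19.1 and 19.0 FPKM in KO libraries, against 12.5, 12.6 and 12.6 FPKM in WT libraries. KO libraries lay above every WT library for these 3 genes, and the last 2 were 1.68-fold and 1.5-fold higher (0.56 and 0.54, adjusted p = 0.000234 and 1.22e-05), of which Hnrnpdl was not called with equal sums (0.10). Hnrnpa2b1, which marks RNAs for transport and splicing, averaged 63.6 ± 0.748 FPKM in KO and 48.6 ± 0.900 FPKM in WT, higher as deposited (0.38) and not called, with the opposite sign, with equal sums (-0.08).

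Hnrnpa1, the best-studied splicing repressor of the family (chr15:103240432-103246692, plus strand), showed the largest hnRNP fall, with 46.9, 45.7 and 53.1 FPKM in KO libraries, against 88.1, 92.4 and 85.5 FPKM in WT libraries. It was 1.83-fold lower in KO (-0.86, SE 0.060, adjusted p = 8.12e-06). Hnrnpd, also called AUF1, which binds AU-rich elements and speeds mRNA decay (chr5:99955935-99978938, minus strand), had 2.34, 2.05 and 2.21 FPKM in KO libraries, against 3.69, 3.84 and 3.66 FPKM in WT libraries. Hnrnpc, which binds uridine tracts of nascent RNA (chr14:52073377-52104028, minus strand), was the most abundant hnRNP in WT with 95.3, 93.6 and 96.0 FPKM in KO libraries, against 139, 139 and 134 FPKM in WT libraries. The genotypes did not overlap for either, and they were 1.70-fold and 1.44-fold lower in KO (-0.57 and -0.52, adjusted p = 0.000192 and 1.38e-06). Hnrnpu, which tethers RNA to chromatin, averaged 1.91 ± 0.188 FPKM in KO and 3.11 ± 0.0665 FPKM in WT (-0.50), and Hnrnpk, a binder of cytosine-rich sequence, averaged 74.7 ± 2.46 FPKM in KO and 100.5 ± 2.60 FPKM in WT (-0.42). Hnrnpm (-0.29), Hnrnpf (-0.21, with 26.5% of exonic bases shared) and Hnrnph1 (-0.17) fell by less. Hnrnph1 averaged 10.6 ± 0.774 FPKM in KO and 12 ± 0.284 FPKM in WT with an adjusted p = 0.0382, and it lost its call when any library other than KO replicate 3 was left out. Not called were Hnrnpa0, Hnrnpa3, Hnrnph2, Hnrnph3, Hnrnpl and Hnrnpll, with log2 fold changes between -0.16 and 0.15, and of these Hnrnpl and Hnrnpll did not overlap between genotypes; all 6 were called lower with equal sums. Hnrnpr, under the filter, had 0.821, 0.846 and 0.846 FPKM in KO libraries, against 1.02, 1.04 and 1.08 FPKM in WT libraries, all KO values below all WT values, and Hnrnpul1, also under it, had 0.831, 0.912 and 0.902 FPKM in KO libraries, against 0.746, 1.07 and 0.991 FPKM in WT libraries with overlap.

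Ratios of transcripts within a library do not depend on how libraries are scaled, and 14 pairs of partners or relatives were formed after their values had been seen, so they are descriptions. The ratio of Hnrnpa1 to Hnrnpa2b1, which bind similar sequences, was 0.747, 0.716 and 0.826 in KO libraries, against 1.78, 1.90 and 1.79 in WT libraries, so the more abundant of the pair was Hnrnpa2b1 in every KO library and Hnrnpa1 in every WT library. The ratio of Hnrnpd to Hnrnpdl was 0.117 ± 0.0104 in KO and 0.297 ± 0.00667 in WT. For Srsf1 to Srsf9 it was 0.187 ± 0.0234 in KO and 0.454 ± 0.0227 in WT, and for Srsf4 to Srsf5 it was 0.0447 ± 0.0105 in KO and 0.104 ± 0.0123 in WT. In these 3 pairs the less abundant transcript was lower still, relative to the other, in KO. Within SF3a the ratio of Sf3a3 to Sf3a1, which both fell, was 6.07 ± 0.860 in KO and 7.88 ± 0.201 in WT. Within SF3b the ratio of Sf3b3 to Sf3b5 was 0.117 ± 0.0024 in KO and 0.204 ± 0.0063 in WT, and that of Sf3b4 to Sf3b2 was 0.204 ± 0.0157 in KO and 0.305 ± 0.00719 in WT.

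**Figure D4:**
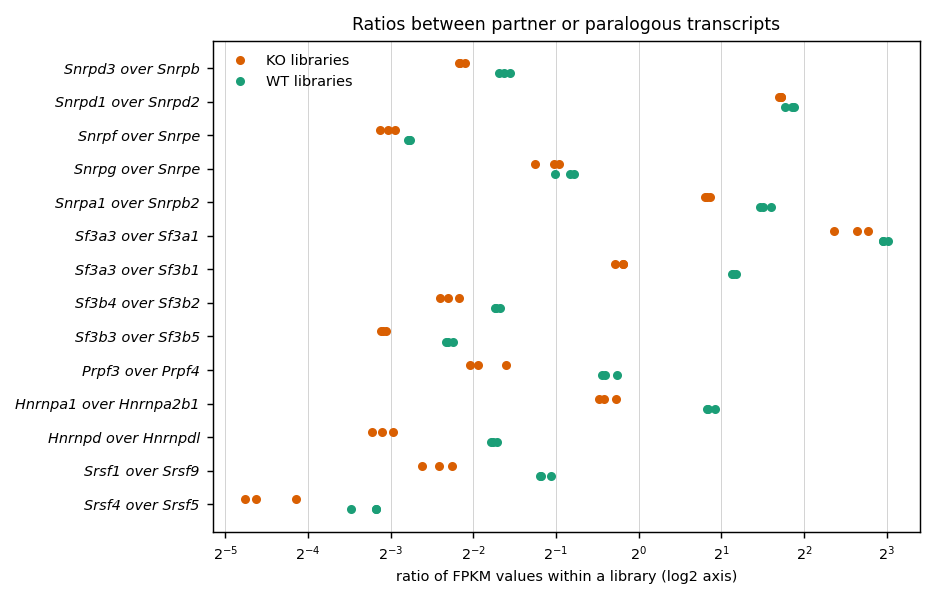
Ratio of FPKM values within each library for 14 pairs of partner or paralogous transcripts, KO libraries in orange and WT libraries in green; the horizontal axis is logarithmic. KO points lie left of WT points in every pair but Snrpg over Snrpe, where they overlap. Pairs were formed after values were seen, and swapping the transcripts of a pair would put its KO points on the right. The shared side is therefore not a result.

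Other genes of the splicing machinery, taken from lists of general knowledge that hold no member, were counted in the same way, and the 2 largest rises and the 2 largest falls past the threshold in each list are named. Over all 9108 tested genes 40.4% were lower and 38.0% higher as deposited, and 5383 were lower and 2074 higher with equal sums, so on the second scale most genes of the whole table were lower too. Of 42 tested core spliceosome proteins 28 fell and 3 rose as deposited (median -0.35), against 39 lower and 1 higher with equal sums. Isy1, a protein of the catalytic spliceosome, averaged 1.99 ± 0.364 FPKM in KO and 9.43 ± 0.359 FPKM in WT (-1.81, adjusted p = 1.85e-06), and Smndc1, which helps the tri-snRNP join, averaged 2.23 ± 0.120 FPKM in KO and 7.43 ± 0.394 FPKM in WT (-1.38). The second-step factor Cdc40 averaged 5.01 ± 0.772 FPKM in KO and 2.49 ± 0.433 FPKM in WT (0.78), and U2af2, which binds the polypyrimidine tract, averaged 1.29 ± 0.133 FPKM in KO and 0.711 ± 0.0414 FPKM in WT (0.42). Of 15 tested genes of Sm ring assembly, where the PRMT5 complex and the SMN complex load Sm proteins on RNA, 11 fell and 3 rose as deposited (median -0.73), against 13 lower and 1 higher with equal sums. Gemin8, a subunit of the SMN complex, averaged 0.502 ± 0.173 FPKM in KO and 6.32 ± 0.274 FPKM in WT (-2.29), Wdr77, the partner of PRMT5, averaged 5.16 ± 0.207 FPKM in KO and 16 ± 0.688 FPKM in WT (-1.47, 31.5% of exonic bases shared with a neighbour), and Snupn, which imports assembled particles into the nucleus, averaged 59.5 ± 1.30 FPKM in KO and 25.3 ± 3.79 FPKM in WT (1.21). Gemin7, a partner of Gemin8, was higher, with 134 ± 3.09 FPKM in KO and 92.2 ± 5.73 FPKM in WT (0.54). U2af2 and Gemin7 were not called with equal sums.

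The LSm proteins, relatives of the Sm ring that serve U6 RNA and mRNA decay, were split as deposited, with 5 of 12 tested lower and 6 higher, against 9 lower and 1 higher with equal sums. Lsm7 averaged 391 ± 18.1 FPKM in KO and 1168 ± 25.6 FPKM in WT (-1.58) and Lsm2 52.3 ± 1.22 FPKM in KO and 89.2 ± 1.29 FPKM in WT (-0.76). Lsm11, a U7 protein, averaged 3.08 ± 0.154 FPKM in KO and 1.22 ± 0.0369 FPKM in WT (0.88), and Lsm8, the protein that sets the nuclear ring apart, 50.5 ± 1.55 FPKM in KO and 35.0 ± 0.909 FPKM in WT (0.52, not called with equal sums). Of 8 tested minor spliceosome proteins 6 fell, among them Zmat5 (-1.07, 27.1% shared) and Snrnp35 (-1.0), and 2 rose: Armc7, with 4.14 ± 0.778 FPKM in KO and 0.652 ± 0.175 FPKM in WT (1.63), and Snrnp25, with 367 ± 9.77 FPKM in KO and 268 ± 11.2 FPKM in WT (0.45 as deposited, -0.01 with equal sums). Among 11 tested kinases, phosphatases and carriers of SR proteins 2 were lower and 6 higher as deposited (median 0.30), against 6 lower and 3 higher with equal sums. The phosphatase subunit Ppp1cc averaged 6.13 ± 0.697 FPKM in KO and 2.31 ± 0.317 FPKM in WT (1.11) and the kinase Dyrk1a 2.53 ± 0.275 FPKM in KO and 0.908 ± 0.217 FPKM in WT (0.89), while the phosphatase subunit Ppp1cb averaged 2.96 ± 0.422 FPKM in KO and 4.68 ± 0.318 FPKM in WT (-0.53) and the nuclear importer Tnpo1 2.48 ± 0.133 FPKM in KO and 4.15 ± 0.260 FPKM in WT (-0.56). SR-related proteins counted 6 lower and 6 higher of 18 as deposited, 3 lower without KO replicate 3, and 15 lower and 1 higher with equal sums, with Bclaf1 (-0.97) and Pnn (-0.92) the largest falls and Nktr (0.85) and Sfswap (0.39, not called with equal sums) the largest rises.

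Of 26 tested hnRNPs and RNA-binding regulators under other symbols 14 fell and 6 rose as deposited, against 20 lower and 5 higher with equal sums. Cirbp, the cold-inducible RNA-binding protein, averaged 38.0 ± 2.06 FPKM in KO and 9.93 ± 0.253 FPKM in WT (1.83, adjusted p = 7.22e-08) and Qk, known for its control of glial splicing, 2.49 ± 0.173 FPKM in KO and 0.805 ± 0.0482 FPKM in WT (0.95), while Zranb2 averaged 2.61 ± 0.519 FPKM in KO and 6.87 ± 0.445 FPKM in WT (-1.13) and Syncrip, a relative of Hnrnpr, 2.02 ± 0.173 FPKM in KO and 4.19 ± 0.197 FPKM in WT (-0.78). Of 14 tested genes of the exon junction complex and nonsense-mediated decay 5 fell and 6 rose as deposited, against 8 lower and 1 higher with equal sums. Upf1, the central helicase of decay, averaged 2.58 ± 0.587 FPKM in KO and 0.261 ± 0.118 FPKM in WT (1.5) and Upf3b 13.7 ± 0.469 FPKM in KO and 9.61 ± 0.392 FPKM in WT (0.47, not called with equal sums). The junction proteins Eif4a3, with 120.2 ± 4.89 FPKM in KO and 203 ± 4.94 FPKM in WT (-0.75), and Magohb, with 7.01 ± 0.300 FPKM in KO and 14.6 ± 0.614 FPKM in WT (-0.96, 30.2% shared), were lower.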

How the data were processed

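The submitters' processing notes name CASAVA, bcl2fastq, the aligner STAR (2.5.3a), DESeq2 (1.18.1) and the build mm10. Per the labels, RNA of sorted cells was made into cDNA by Smart-seq2 and libraries by Nextera XT. The authors deposited FPKM values for 47643 genes. No counter, counting annotation or strand setting is given in the sources used here, so genes that share exonic bases are uncertain.

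The test was limma 3.58.1 (R 4.3.3) on log2(FPKM + 1), two-sided and with a mean-variance trend, over genes averaging 1 FPKM or more. Whole reads, recovered within 0.001 for 96.6% of genes above 0 from lengths in GENCODE M21 or, for 18 members, searched lengths, gave depths, floors and the alternative fit by limma-voom. Floors cover counting error only, since PCR reads are not independent molecules. Simulated data for this comparison held 9107 genes, 50 of them changed at each fold. The fit recovered 42% of genes changed 1.25-fold, 70% at 1.5-fold, 82% at 2-fold and 88% at 4-fold, and it called 10 unchanged genes. Far fewer genes were changed there than the 78.4% called in the real comparison. The adjusted threshold therefore differs, and these shares do not carry over to it.

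Members, classes and lists were chosen with earlier results of these data known. Values per library are given for the 3 largest rises, the 3 largest falls and the 2 most abundant members of each class, and 2 rises and 2 falls are named per pathway list. Other members given per library, the partner pairs and the motifs were chosen after values were seen. Positions are those of GENCODE M21 (GRCm38), and promoter sequences are from RefSeq (GRCm38.p6). The labels do not say whether replicate numbers pair the libraries, and the main fit did not pair them. Alternatives were another pseudocount, other filters and scalings, no trend, limma-voom, a replicate block and leaving out each library. Symbols with "-ps" (2 genes) were left out by the rule, and the values of 1 member are not reported here. Tables were made with Python 3.11.15, numpy 2.4.6 and pandas 2.3.3, and figures with matplotlib 3.10.9.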

Additional observations from a re-analysis of the deposited data

How the results depend on the processing

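Of the 46 calls, all held with a pseudocount of 0.1, without the trend and in limma-voom on recovered reads. Equal sums made 4 members higher and 2074 of all genes higher. All genes lower numbered 5769 with no filter and 2383 at a minimum of 5 FPKM, where 2072 were higher. The members' median was -0.28 with a pseudocount of 0.1, -0.22 with no filter, -0.29 at 5 FPKM, -0.67 with equal sums, -0.29 with sums without the most abundant genes (trimmed sums), -0.19 after quantile and -0.20 after loess normalization, -0.28 in limma-voom, and -0.26 to -0.23 with each library left out. The SR median was -0.03 at 5 FPKM, -0.56 with equal and -0.15 with trimmed sums, and -0.02 after quantile or loess normalization. The hnRNP median was -0.19 at 5 FPKM, -0.51 with equal sums, and -0.18 to -0.09 with each library left out. The Sm ring median was -0.86 with equal and -0.44 with trimmed sums and -0.46 after quantile normalization, and that of the 5 other Snrp, Snrpert included, was -0.29 as deposited and -0.75 with equal sums. The SF3 median was -0.22 with no filter, -0.86 with equal and -0.46 with trimmed sums, and -0.32 after quantile or loess normalization. The PRPF median was -0.33 with a pseudocount of 0.1, -0.34 with no filter, -0.47 at 5 FPKM, -0.65 with equal and -0.32 with trimmed sums, and -0.34 in limma-voom. With equal sums the sign turned for Hnrnpa2b1 (-0.08), Hnrnpl (-0.20), Hnrnph3 (-0.33), Hnrnpll (-0.23), Prpf19 (-0.20), Sf3b1 (-0.34), Snrpb (-0.47), Srsf10 (-0.23), Prpf39 (-0.27), Sf3b6 (-0.42), Prpf18 (-0.21), Sf3b5 (-0.30), Snrpert (-0.29) and, on the pathway lists, Snrnp25 (-0.01). With trimmed sums it turned for Snrpb (-0.05), Prpf39 (-0.00) and Sf3b6 (-0.00), after quantile normalization for Snrpb (-0.13) and Srsf3 (0.09), and after loess normalization for Snrpb (-0.03) and Srsf3 (0.06). Leaving out each library gave -0.19 to 0.04 for Prpf6, -0.02 to 0.13 for Hnrnph3, -0.05 to 0.03 for Snrpb, -0.02 to 0.10 for Prpf39 and -0.27 to 0.44 for Snrpert. The cause of these shifts was not tested. The replicate block left 33 members lower and 10 higher, without Hnrnph1, Prpf38b and Sf3b1, and changed no other call. Deviations of libraries with the same number correlated at -0.02 to 0.01, so no pairing by number was seen in these values. They cannot tell whether libraries with the same number were prepared together, which the labels do not say. Depth limits the members under the filter and those with few reads: tested members had from 164 reads in KO and 228 in WT.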

Other observations

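A search of GENCODE M21 found several splicing factor genes that start within 1000 bases of a protein-coding neighbour transcribed the other way. This search was chosen after values had been seen, and no pair was picked by direction. Of 9 such member pairs with both genes tested, both genes were called in 8, in the same direction in 2 and in opposite directions in 6. Over all genes, both neighbours were called in 238 of 354 such pairs with both genes tested, and 51.3% of the 238 went in the same direction. These counts depend on the scaling. With equal sums both genes were called in 3 of the 9 member pairs, 2 in the same direction and 1 in opposite directions. Over all genes both were then called in 257 of 354 pairs, and 70.4% of the 257 went the same way.

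Hnrnpa1 and Cbx5, which encodes the heterochromatin protein HP1 alpha, start 616 bases apart. Cbx5 averaged 12.8 ± 0.752 FPKM in KO and 8.74 ± 0.585 FPKM in WT (log2 fold change 0.50, limma adjusted p = 0.000289), where Hnrnpa1 was lower (-0.86), and with equal sums Cbx5 was not called (0.08). Hnrnpdl and Enoph1, an enzyme of methionine salvage, start 321 bases apart, and Enoph1 averaged 13.4 ± 1.34 FPKM in KO and 33.7 ± 0.267 FPKM in WT (-1.27) where Hnrnpdl was higher as deposited (0.54). Prpf4 and Cdc26, a subunit of the anaphase-promoting complex, start 155 bases apart, and Cdc26 averaged 2.97 ± 0.201 FPKM in KO and 6.35 ± 0.144 FPKM in WT (-0.89) where Prpf4 was higher as deposited (0.46); Hnrnpdl and Prpf4 were not called with equal sums. The largest change among these neighbours was that of Ttc9c beside Hnrnpul2, with 2.07 ± 0.362 FPKM in KO and 9.43 ± 0.275 FPKM in WT (-1.77), and this was the pair called in opposite directions with equal sums (0.21 for Hnrnpul2 and -2.14 for Ttc9c). The pairs that fell together were Srsf11 with Lrrc40 (-0.52 and -0.58) and Prpf31 with Tfpt (-0.75 and -0.52). Without a strand setting, reads of overlapping neighbours cannot be told apart, and the basis of these directions was not tested. Whether any of these neighbours share a promoter was not tested either.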
